A study of Rattus norvegicus with 6 samples.

Results

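A set of 10 small GTPase genes was examined in cultured rat nucleus pulposus cells, which make up the soft centre of the spinal disc, with and without lactate: the RGK genes Rem1, Rem2, Rrad and Gem, the Rasd genes Rasd1 and Rasd2, the Rnd genes Rnd1 and Rnd3, and the RhoA-related genes Rhob and Rhou. They are 10 of the 17273 genes in the deposited table and were found there by symbol. The set was chosen by the lactate-to-control difference of Rem2 and Rasd2, which were much higher after lactate in these same libraries, so the values of those 2 genes are given as a description without a test. The other 8 came with them as relatives, but the members were chosen with earlier results of these data known. Some close relatives, such as Rnd2 and Rhov, are not among them. All 10 were among the 13747 genes that passed the filter on low counts. The 3 control libraries came from untreated cells and the 3 lactate libraries from cells given 10 mM lactate for 8 h. All 6 are labelled as wild-type cells of male Sprague Dawley rats, grown in DMEM with fetal bovine serum. Nothing in the labels says if replicate libraries are separate animals or cultures, and each p-value therefore reflects only library-to-library spread, part of which may be technical.

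Small GTPases are molecular switches that bind GTP in the active and GDP in the inactive state, and most are switched by exchange factors and GTPase-activating proteins. Several genes of this set encode proteins that bind or hydrolyse nucleotide in an unusual way and are regulated largely through their abundance. RGK proteins bind the β subunits of voltage-gated calcium channels and reduce the calcium current, and Gem and Rad (the product of Rrad) also restrain the ROCK kinases that drive actomyosin contraction. Rnd proteins hardly hydrolyse GTP and oppose RhoA, partly through p190 RhoGAP proteins. Rasd1 (Dexras1) is a glucocorticoid-inducible gene whose protein acts on heterotrimeric G proteins, and Rasd2 (Rhes) is best known from the striatum of the brain. RhoB is a short-lived, stress-responsive relative of RhoA found on endosomes, and RhoU (Wrch1) is a relative of Cdc42.

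Libraries held 30291357 to 38989574 counts. Levels are given on 2 scales. CPM are counts scaled to library size with TMM factors, which align the bulk of genes, and do not allow comparison between genes. The authors' FPKM are also divided by transcript length, so they do allow it, but they follow library totals. The choice matters here, since the median log2 fold change of all tested genes was −0.10 on the TMM scale and −0.96 when libraries were scaled by their totals alone. Differences are log2 fold changes of lactate over control with their standard error (SE), and a gene was called at an edgeR adjusted p under 0.05. In RNA from whole cultures, fewer cells that express a gene and less RNA of it per cell cannot be told apart. The summed level of 13 nucleus pulposus and cartilage markers was 2679 to 3005 CPM in control and 2573 to 2918 CPM in lactate libraries. Most of it came from Acan, the cartilage proteoglycan aggrecan. Of the 11 tested, 3 were called higher, 3 lower and 5 not called (median log2 fold change 0.09). Tbxt and Krt19, which mark notochord-derived cells, had few reads, with 12 and 9 control counts and 0 lactate counts. Col1a1 and 7 other fibroblast and annulus markers summed to 32659 to 38058 CPM in control and 107152 to 155746 CPM in lactate libraries. Of these 8, 4 were called higher, 2 lower and 2 not called. Sums in CPM are not divided by length, so the lists are not to be compared with each other.

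Of the 10 genes, 6 were called higher after lactate, 3 lower and 1 was not called, with Rem2 and Rasd2, on which the set was chosen, among the 6. Over all tested genes 66.0% were called, 31.4% higher and 34.6% lower, so a call was the usual outcome. With library totals in place of TMM factors, 1722 of the 13747 genes were called higher and 8492 lower. With the trend on transcript length removed, 4611 were called higher and 4191 lower. Counts of calls under these settings are to be read beside these numbers. The CPM of the groups did not overlap for the 9 called members, against 72.2% of all tested genes (33.7% higher and 38.4% lower after lactate). Position in the ranking of fold changes sets some members further apart, as a description. From the top, Rasd2 stood at place 14, Rem2 at 32, Gem at 47 and Rasd1 at 147 of 13747, while Rem1 stood at place 709 from the bottom.

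**Figure D1:**
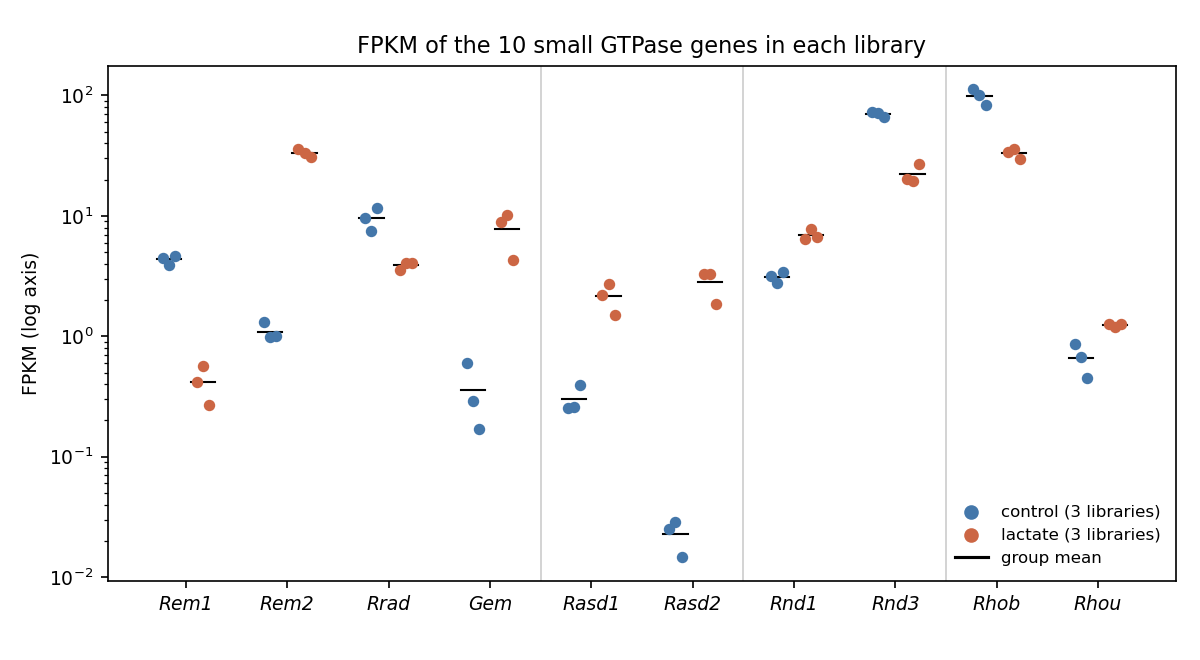
FPKM (log axis) of each of the 10 genes in the 3 control and 3 lactate libraries. Points are libraries and bars are group means. Rem2 goes from 1.10 to 33.4 FPKM, a level that overlaps that of Rhob after lactate. Rem1 goes to the bottom, and Rhob and Rnd3 are the most abundant members in control.

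Within the RGK genes the leading member changed. Rrad and Rem1 were the most abundant in control, and Rem2 and Gem after lactate. Rem2 encodes an RGK protein studied mainly in neurons. It stood at 1.79, 1.38 and 1.38 CPM in control libraries 1, 2 and 3 and at 94.1, 89.5 and 71.1 CPM in lactate libraries 1, 2 and 3. The lowest lactate library was far above the highest control library, and the log2 fold change was 5.81 ± 0.18 (SE), from 218 summed control counts to 6011 lactate counts. Its FPKM went from 1.10 ± 0.187 to 33.4 ± 2.80 (SD, n = 3), which is percentile 16.2 and percentile 87 among the tested genes.

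Gem, which binds calcium channel β subunits and calmodulin, had few reads in control. Its counts were 34, 19 and 10 in control and 460, 520 and 259 in lactate libraries. This corresponded to 0.744, 0.368 and 0.212 CPM in control and to 20.9, 24.5 and 9.05 CPM after lactate. The groups did not overlap, although lactate library 3 was well below the other lactate libraries. Gem rose by 5.35 ± 0.52 on the log2 scale (edgeR adjusted p = 3.4e-05).

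Rem1, which is expressed in heart and vessels as well as other tissues, moved the other way. It was at 5.88, 5.21 and 6.11 CPM in control and at 1.04, 1.46 and 0.629 CPM in lactate libraries. All lactate libraries were below all control libraries, and Rem1 fell by 2.47 ± 0.32 on the log2 scale (edgeR adjusted p = 0.00016). The lactate values rest on 23, 31 and 18 counts.

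Rrad, first described as a gene associated with diabetes in muscle, was the RGK gene without a call. It was at 10.7, 8.78 and 13.3 CPM in control and at 7.76, 9.03 and 7.90 CPM in lactate libraries, so that lactate library 2 lay within the control range. The log2 fold change was −0.41 ± 0.19 (edgeR adjusted p = 0.082). In FPKM, which follow library totals, Rrad ran from 7.54 to 11.6 in control and from 3.58 to 4.08 after lactate, without overlap. With library totals in place of TMM factors it was −1.27 and called (edgeR adjusted p = 0.00044), and without control replicate 2 it was −0.55 and called (edgeR adjusted p = 0.040). Rrad and Rem1 are abundant in muscle, and 7 markers of skeletal and heart muscle summed to only 1.01 to 1.48 CPM in control and 0.408 to 1.03 CPM in lactate libraries, with Ckm at 0 counts in all control libraries and Actn2 and Myh4 at 0 counts in all lactate libraries. The 6 markers of smooth muscle, as in vessel walls, summed to 1797 to 2111 CPM in control and 2125 to 2494 CPM in lactate libraries, and their part in the values of Rem1 and Rrad was not tested.

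Shares within a family do not depend on how libraries are scaled to each other. Of the summed FPKM of the 4 RGK genes, Rrad made up 62.0% ± 4.13 (SD, n = 3) in control and 8.68% ± 1.57 after lactate. The share of Rem1 went from 28.5% ± 2.03 to 0.902% ± 0.252. Rem2 went from 7.21% ± 1.33 to 73.7% ± 4.26 and Gem from 2.35% ± 1.41 to 16.8% ± 5.18. No share overlapped between the groups. Shares are parts of a whole, however, and Rem2 is a gene on which the set was chosen. Its rise lowers the other shares even where a gene's own level does not change. The sum itself was 15.4 ± 2.44 FPKM in control and 45.6 ± 5.45 FPKM after lactate. The rise of the sum was thus carried by 2 of its 4 genes.

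**Figure D2:**
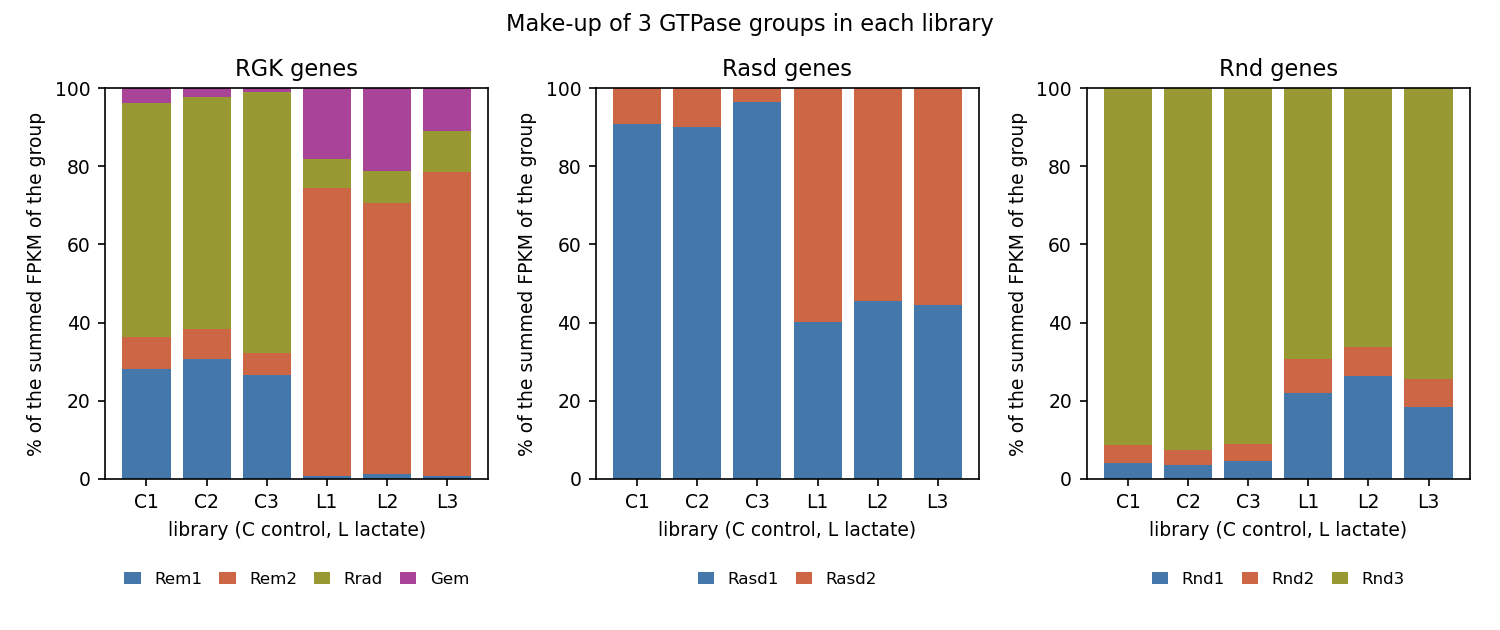
Share (%) of each gene in the summed FPKM of the RGK, Rasd and Rnd genes, by library (C control, L lactate). Rrad holds 59.4 to 66.7% of RGK FPKM in control and Rem2 69.4 to 77.9% in lactate libraries.

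Both Rasd genes were nearly silent in control. Rasd2 had 3, 4 and 2 counts in control libraries and 363, 354 and 237 in lactate libraries. In CPM this was 0.0656, 0.0775 and 0.0424 against 16.5, 16.7 and 8.28. Control values were close to the 0.0581 to 0.0656 CPM that 3 counts amount to, so the size of the change is loosely set. The fitted log2 fold change was 7.71 ± 0.42 (SE). The ratio of summed counts, each divided by its summed TMM-adjusted library size, was 213, with an exact 95% interval of 112 to 467 that covers counting error only.

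Rasd1 was at 0.328, 0.349 and 0.509 CPM in control and at 5.31, 6.73 and 3.22 CPM in lactate libraries, from 57 and 352 summed counts. The groups did not overlap, and Rasd1 rose by 3.67 ± 0.37 on the log2 scale (edgeR adjusted p = 4.3e-05). Per length, Rasd1 made up 92.5% ± 3.50 (SD, n = 3) of the summed Rasd FPKM in control and 43.4% ± 2.90 after lactate, when Rasd2 had the larger share in each of the 3 libraries. The share of Rasd1 thus fell while its level rose, since Rasd2, on which the set was chosen, rose more. The 2 genes stayed modest in absolute terms, at 2.14 ± 0.616 FPKM for Rasd1 and 2.81 ± 0.820 FPKM for Rasd2 after lactate, and these levels overlapped.

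Rasd2 and Rem2 are both known from neurons. The 6 neuronal markers in the table summed to 13.0 to 14.3 CPM in control and 33.9 to 38.8 CPM in lactate libraries. Tubb3, a neuronal tubulin, accounted for most of this (log2 fold change 2.12 ± 0.16, edgeR adjusted p = 9.2e-06), while Snap25 and Slc17a7 had 8 and 19 control counts and 2 lactate counts each. The part of neuronal cells in the values of Rasd2 and Rem2 was not tested.

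Lactate library 3 was the lowest of its group in CPM for 8 of the 10 members, all but Rrad and Rnd3. The share of all tested genes lowest in that library was not computed, so this count has no background. The CPM of lactate library 3 relative to the mean of lactate libraries 1 and 2 was 0.399 for Gem, 0.500 for Rasd2, 0.503 for Rem1, 0.534 for Rasd1 and 0.774 for Rem2. Over 12093 genes with a mean of at least 1 CPM the median of this ratio was 1.00, and 5% of them lay under 0.553. Gem, Rasd2, Rem1 and Rasd1 were under that limit. Gem, Rasd2 and Rasd1 were higher after lactate and Rem1 was lower. Rnd3 was the only member with a ratio above 1, at 1.20. Without lactate replicate 3 all 10 log2 fold changes kept their sign.

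The starts of these genes were read from RefSeq on the rat assembly GRCr8, where 7 of the 10 members had an entry. Gem, Rrad and Rnd1 are named only. A 100-base stretch before the start is shown for 3 genes that stood higher after lactate and for Rnd3, which fell. It begins 110 bases before the start in Rem2, 140 in Rasd1 and Rasd2 and 160 in Rnd3. These positions were set gene by gene, and Rem1, Rhou and Rhob, which also holds TGACG, are not shown. The stretches thus do not compare genes that rose with genes that fell. In Rem2 the capitals mark TTACATCA, the reverse complement of an ATF4-type element TGATGNAA, and TGACCTCA, a form of the CRE-like TGACNTCA. In Rasd1 they mark the CRE half-site TGACG, and in Rnd3 a CArG box, the element bound by serum response factor, and TATAAA. None of the marked letters overlap. The stretches are chr15:31903862-31903961 (plus strand) for Rem2, chr10:45267723-45267822 (minus) for Rasd1, chr19:13599888-13599987 (plus) for Rasd2 and chr3:55998555-55998654 (minus) for Rnd3, each 5′ to 3′ along the gene.
Rem2: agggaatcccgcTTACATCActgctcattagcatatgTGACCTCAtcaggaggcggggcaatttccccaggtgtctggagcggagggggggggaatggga
Rasd1: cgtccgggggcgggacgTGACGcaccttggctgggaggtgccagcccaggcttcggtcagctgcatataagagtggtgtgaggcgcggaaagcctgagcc
Rasd2: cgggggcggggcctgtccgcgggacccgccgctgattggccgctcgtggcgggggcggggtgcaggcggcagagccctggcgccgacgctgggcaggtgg
Rnd3: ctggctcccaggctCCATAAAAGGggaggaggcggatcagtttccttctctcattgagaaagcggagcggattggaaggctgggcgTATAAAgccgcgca

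Both strands of windows of 250 bases before to 50 after the start were searched. TGATGNAA was in 3.98% of 33469 rat windows and, among the 7 members, in Rem2, 98 bases before the start. TGACNTCA, a form chosen after the sequences were seen, was in 10.2% of all windows and in Rem2. TGACG was in 21.2% of all windows and in Rasd1 and Rhob. The CArG box was in 1.64% and TATAAA in 14.2% of all windows, and both were in Rnd3. The full CRE TGACGTCA, the element TTGCATCA, the E-box CACGTG, the AP-1 site TGACTCA, the full p53 site and the endoplasmic reticulum stress element were in none of the 7 windows. They were in 1.83%, 0.795%, 6.42%, 4.63%, 0.0% and 0.0657% of all windows. The windows of the 7 members differed in base composition, from 55.3% G and C in Rem2 to 77.0% in Rasd2, against a median of 51.7% over all windows. A match is a run of letters and says nothing of binding in these cells.

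The Rnd genes moved in opposite directions. Rnd3, whose protein RhoE binds the kinase ROCK1, was one of the 2 abundant members, at 156, 155 and 142 CPM in control and at 81.3, 80.7 and 97.3 CPM in lactate libraries. The groups did not overlap, and Rnd3 fell by 0.81 ± 0.11 on the log2 scale (edgeR adjusted p = 0.00022). Rnd1, which in neurons and epithelia lowers adhesion and stress fibres, was at 3.85, 3.47 and 4.18 CPM in control and at 14.7, 18.3 and 13.7 CPM in lactate libraries. It rose by 2.02 ± 0.18 (edgeR adjusted p = 1.8e-05), and no lactate library was near the control range. Per length Rnd3 nevertheless stayed the main Rnd gene, with 91.6% ± 0.775 (SD, n = 3) of the summed FPKM of Rnd1, Rnd2 and Rnd3 in control and 70.0% ± 4.11 after lactate. The share of Rnd1 was 4.07% ± 0.550 in control and 22.2% ± 3.95 after lactate. The third gene of the group, Rnd2, was not called (0.45 ± 0.20, edgeR adjusted p = 0.076). When scaled by library totals, Rnd3 was at −1.66.

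Rhob was the most abundant member in control. It stood at 184, 169 and 136 CPM in control and at 106, 116 and 82.1 CPM in lactate libraries. The highest lactate library was below the lowest control library, and Rhob fell by 0.69 ± 0.16 on the log2 scale (edgeR adjusted p = 0.0044). Its close relative Rhoa, the main regulator of stress fibres, rose by 1.12 ± 0.08 (edgeR adjusted p = 6.8e-06), or by 0.27 when scaled by library totals. Of the summed FPKM of Rhoa, Rhob and Rhoc, Rhob made up 15.3% ± 2.07 (SD, n = 3) in control and 5.19% ± 0.943 after lactate, and Rhoa 64.8% ± 0.735 and 76.8% ± 0.941. When scaled by library totals, Rhob was at −1.56.

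Rhou was scarce, with 23, 21 and 13 counts in control and 32, 29 and 36 in lactate libraries. In CPM it was at 0.503, 0.407 and 0.276 against 1.45, 1.36 and 1.26. The groups did not overlap, and Rhou rose by 1.77 ± 0.39 (edgeR adjusted p = 0.0035). Scaling by library totals gave 0.91 without a call (edgeR adjusted p = 0.056). Its nearest relative Rhov had 0 counts in control and 43 in lactate libraries and was not tested.

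**Figure D3:**
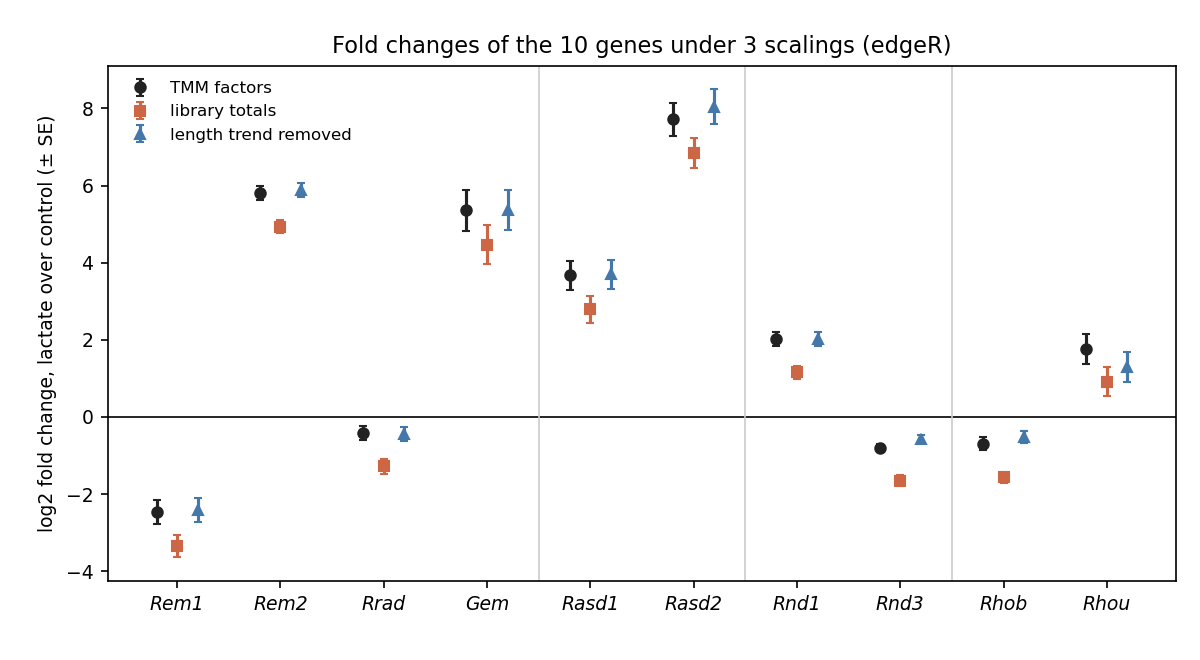
Log2 fold change (lactate over control) with its SE for each of the 10 genes from edgeR with TMM factors, with library totals, and with the trend on transcript length removed. Library totals lower every value, and no member changes sign: Rem2 is at 5.81, 4.94 and 5.89, and Rrad at −0.41, −1.27 and −0.45.

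By FPKM the order in control was Rhob (98.4 ± 14.9, SD, n = 3), Rnd3 (70.2 ± 3.56), Rrad (9.57 ± 2.06), Rem1 (4.35 ± 0.401), Rnd1 (3.11 ± 0.327), Rem2, Rhou (0.661 ± 0.207), Gem (0.356 ± 0.224), Rasd1 (0.303 ± 0.0818) and Rasd2 (0.0229 ± 0.00741). Of these neighbours, Rhou and Gem, and Gem and Rasd1, overlapped between libraries. After lactate the order was Rem2, Rhob (33.2 ± 3.40), Rnd3 (22.1 ± 4.15), Gem (7.81 ± 3.08), Rnd1 (6.91 ± 0.702), Rrad (3.90 ± 0.274), Rasd2, Rasd1, Rhou (1.24 ± 0.0427) and Rem1 (0.417 ± 0.150). Rem2 and Rhob overlapped, as did Gem and Rnd1, and Rasd2 and Rasd1. Rem2 thus went from place 6 to a level that overlapped that of Rhob, and Rem1 from place 4 to place 10.

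Fold changes in these libraries followed transcript length and level. The members spanned a relative length of 0.358 (Rhou) to 1.59 (Rasd2) of the median tested gene, taken from the ratio of counts to FPKM. Among the shortest 1375 genes, which include Rhou, the median log2 fold change was 0.78, and with the length trend removed Rhou was at 1.30 and still called (edgeR adjusted p = 0.015). Among the 2750 genes with the lowest level, which include Rasd1, Rasd2 and Rhou, the median was −0.64 and 14.3% of genes were called higher. Among the 2750 with the highest level, which include Rnd3 and Rhob, it was 0.55 and 19.8% were called lower. In the groups of 2749 genes between them by level, the median was −0.53 where Rem1 and Gem lie and −0.25 where Rem2, Rrad and Rnd1 lie.

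The genes with the profile most like that of Rem2 over the 6 libraries, by the root mean square distance of centred log2 CPM among 12092 genes, were Atf3 (0.235), a stress-induced transcription factor, and Fgf21 (0.264), a secreted stress hormone. The next 3 were unnamed loci. Atf3 went from 4.74 to 247 CPM and Fgf21 from 0.0829 to 7.23 CPM. Nearest to Rasd2 were an unnamed locus (0.179), Stmn4 (0.336), a stathmin of neurons, and Trarg1 (0.336), a membrane protein of fat cells. Stmn4 and Trarg1 were listed at 0 in all control libraries and at 4.82 and 7.94 CPM after lactate. These distances mostly reflect the size of the difference between the groups.

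The other genes of both families were less one-sided. Of 14 other RhoA-related GTPase genes tested, 5 were called higher, 4 lower and 5 not called, with a median log2 fold change of 0.06 against −0.10 over all tested genes (scaled by totals, 3 higher, 7 lower and −0.79). Rhof, linked to filopodia, rose by 3.17 ± 0.20, from 1.62 ± 0.312 to 14.6 ± 0.859 CPM (SD, n = 3; edgeR adjusted p = 3.9e-06). Rhod rose by 1.83 ± 0.16, and Rhobtb3 fell by 1.34 ± 0.13. Of 25 other Ras family genes, 7 were higher, 10 lower and 8 not called (median −0.33; scaled by totals, 0 higher and 16 lower, median −1.18). Mras fell by 2.01 ± 0.14 and Rap2a by 1.09 ± 0.11, while Rheb, the activator of mTORC1, rose by 1.13 ± 0.10 but, scaled by totals, had no call at 0.28 (edgeR adjusted p = 0.070). Within the summed FPKM of the 31 Ras family, RGK and Rasd genes, Rem2 went from 0.159% ± 0.0262 to 7.72% ± 1.14 (SD, n = 3). Within 20 RhoA-related genes, Rnd3 and Rhob went from 4.99% ± 0.248 and 6.99% ± 1.04 to 1.91% ± 0.209 and 2.90% ± 0.520.

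The subunits of voltage-gated calcium channels include the β subunits that RGK proteins bind. Of 8 tested, 1 was higher, 2 lower and 5 not called, with a median of −0.50 (7 lower and 0 higher with library totals; 2 of each and a median of 0.05 with the length trend removed). Cacnb2, a β subunit, fell by 2.49 ± 0.32, from 3.34 ± 0.703 to 0.588 ± 0.124 CPM (SD, n = 3; edgeR adjusted p = 0.00016). Cacnb3, the β subunit with the most reads here, rose by 0.76 ± 0.10 (edgeR adjusted p = 0.00023), but was at −0.11 with library totals. Cacna2d1, an accessory subunit, fell by 1.01 ± 0.14. The pore subunit genes Cacna1c of an L-type channel (−0.23 ± 0.24) and Cacna1g of a T-type channel, which does not need β subunits (0.10 ± 0.09), were not called. With library totals both were called lower, Cacna1c at −1.10 and Cacna1g at −0.76. With the length trend removed Cacna1g was called higher, at 0.74, and Cacna1c had no call, at 0.40. Their direction thus depends on the scaling.

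Among 9 calmodulin and 14-3-3 genes, whose products bind RGK proteins, 3 were higher, 2 lower and 4 not called (median 0.16; scaled by totals, 0 higher and 7 lower, median −0.70). Ywhah fell by 0.60 ± 0.09. Ywhag rose by 0.81 ± 0.13 and Ywhae by 0.47 ± 0.08, but these were at −0.06 and −0.39 with library totals. Of 23 other binding partners, 8 were higher, 5 lower and 10 not called (median −0.05; scaled by totals, 1 higher and 14 lower, median −0.94; with the length trend removed, 10 higher and 4 lower, median 0.41). Among them the kinase gene Camk2d fell by 1.05 ± 0.09 and Pik3r1, a regulatory subunit of phosphoinositide 3-kinase, by 2.02 ± 0.22. The G protein genes Gnb2 and Gnai3 rose by 1.14 ± 0.11 and 1.03 ± 0.11, but were at 0.28 and 0.18 with library totals, where Gnai3 was not called (edgeR adjusted p = 0.26).

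Downstream of RhoA, in the pathway that Gem, Rad and Rnd proteins restrain, 9 of 27 effectors and myosin regulators were higher, 10 lower and 8 not called (median −0.20; scaled by totals, 3 higher and 21 lower, median −1.05; with the length trend removed, 12 higher and 9 lower, median 0.23). Rock2, one of the 2 ROCK kinase genes, went from 329 ± 22.0 to 52.1 ± 1.93 CPM (SD, n = 3) and fell by 2.66 ± 0.10 (edgeR adjusted p = 8.9e-07). Rock1, the other one, was at 87.3 CPM in control and 74.5 CPM after lactate and was not called (−0.23 ± 0.11, edgeR adjusted p = 0.095). Scaled by totals Rock1 was called lower, at −1.08 (edgeR adjusted p = 0.0002). With the length trend removed it was called higher, at 0.31 (edgeR adjusted p = 0.018), so its direction depends on the scaling. Ppp1r12b, a subunit of myosin phosphatase, rose by 1.98 ± 0.12 and the myosin light chain Myl12b by 1.24 ± 0.11. The row of Myh9, the heavy chain of nonmuscle myosin, had counts in only 2 of 6 libraries, both control. These held 86642 counts, against 0 in the lactate libraries, so the gene was not scarce where it was counted. It did not pass the filter, and the cause of this pattern was not tested. Of 24 effectors of Rac and Cdc42, 6 were higher, 11 lower and 7 not called (median −0.50; scaled by totals, 2 higher and 18 lower, median −1.35). The polarity gene Pard6b rose by 3.46 ± 0.25, while Cdc42bpa, Cdc42ep5 and Cdc42ep1 fell by 2.34 ± 0.11, 2.29 ± 0.16 and 1.92 ± 0.13.

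The regulators that switch RhoA and its relatives were mostly lower. Of 40 exchange factors, 28 were called lower, 4 higher and 8 not called (median −1.07), and of 42 GTPase-activating proteins and dissociation inhibitors 27 lower, 6 higher and 9 not called (median −0.99). With the length trend removed, 4191 of all 13747 tested genes were lower and 4611 higher, with a median of 0.00. The counts in these lists were then 21 lower and 9 higher (median −0.55) and 17 lower and 9 higher (median −0.66). With library totals, where 8492 of all tested genes were lower and 1722 higher, they were 36 lower and 0 higher, and 35 lower and 1 higher. Dock8 and Arhgef10, both exchange factors, fell by 2.30 ± 0.14 and 2.15 ± 0.11, Vav2 by 2.02 ± 0.14 and Dock5 by 1.94 ± 0.12. Among the GTPase-activating proteins Arhgap31 fell by 2.63 ± 0.23 and Abr by 1.48 ± 0.12, while Arhgap23 rose by 1.30 ± 0.11. Of 9 genes for prenylation, which attaches most Rasd, Rnd and RhoA-related proteins to membranes, 3 were higher, 3 lower and 3 not called (median 0.14; scaled by totals, 0 higher and 6 lower, median −0.71). Fdps and Rce1 rose by 0.82 ± 0.09 and 0.82 ± 0.14 (both −0.04 with library totals), and Zmpste24 and Pggt1b fell by 0.77 ± 0.11 and 0.67 ± 0.16.

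**Figure D4:**
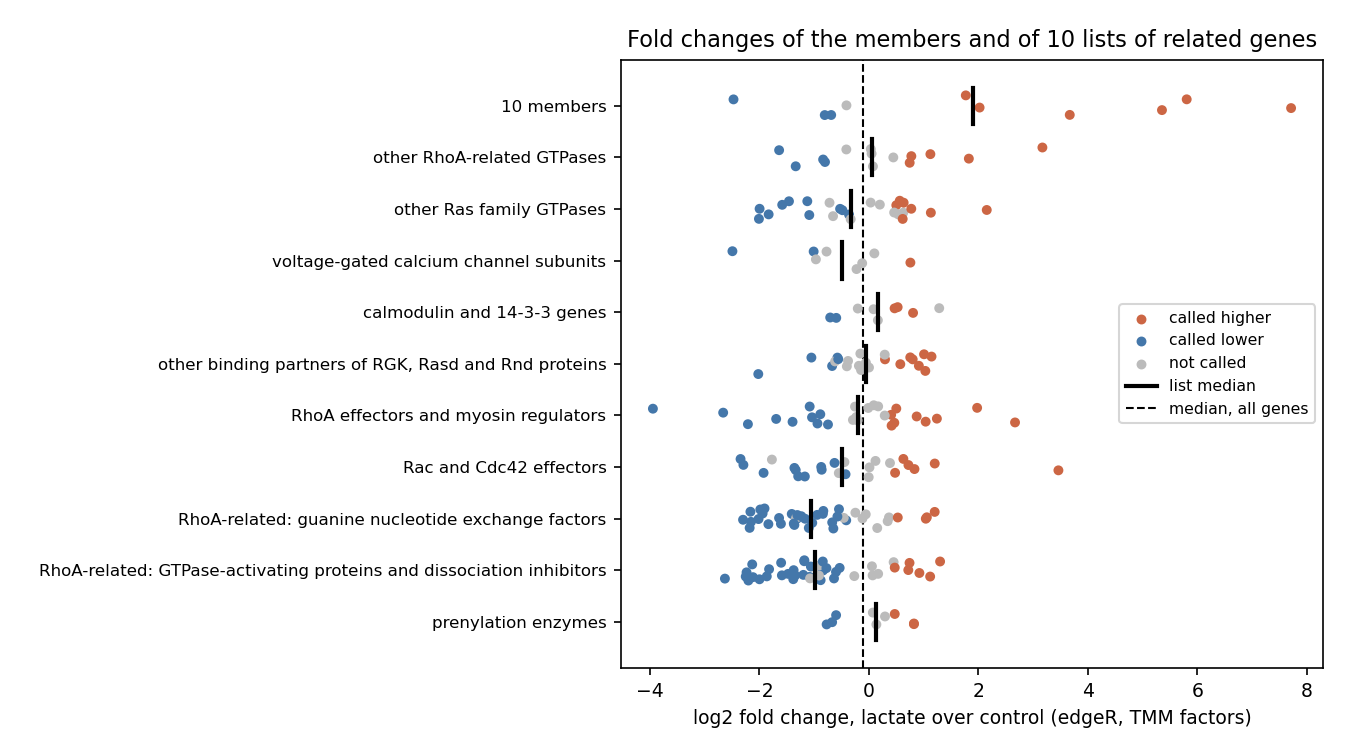
Log2 fold changes (lactate over control) of the 10 members and of 10 lists of related genes. Each point is a gene coloured by its edgeR call, solid bars are list medians and the dashed line is the median of all tested genes, −0.10; the exchange factors and GTPase-activating proteins have medians of −1.07 and −0.99.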

How the data were processed

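Total RNA of 3 control and 3 lactate samples went into mRNA sequencing libraries, per the labels. The authors deposited raw read counts and FPKM per gene and library, with their own comparison as log2 fold changes and p-values, per the file headers. Which aligner, counter and annotation were used, and whether strand was, is not given in the sources used here. Per the submitters' processing notes the builds are GRCm38 and mm10, which are mouse builds, while the gene names are those of rat, so the build was not settled. All 10 members match a symbol of GRCr8. Overlapping or antisense genes could share reads.

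Counts were tested with edgeR 4.0.16 (R 4.3.3, quasi-likelihood, TMM factors, filterByExpr, no term but the group), with p-values adjusted by Benjamini-Hochberg over 13747 genes. Alternatives used RLE or upper-quartile factors, library totals, other filters, DESeq2 1.42.0, limma 3.58.1 (voom, and trend on log2 FPKM with pseudocounts of 1 and 0.1), a replicate block, removal of the length trend and each library left out. The members and lists were chosen with earlier results of these data known. Named genes are the members, up to 4 called genes with the smallest p in each of 10 lists, and the genes most alike to Rem2 and Rasd2; some genes that the rule names are not reported here. Relatives of a member (Rhov, Rnd2), Cacna1g, Cacna1c, Rock1, Myh9 and the marker genes were named after their values were seen. Libraries of one group differed by more than sampling noise, so none was counted as a repeat. Intervals and the floor of 3 counts cover counting error only.

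Per the authors' deposited table the log2 fold changes were 5.77 for Rem2, 7.68 for Rasd2, 5.31 for Gem and −0.45 for Rrad.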

Additional observations from a re-analysis of the deposited data

How the results depend on the processing

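No member changed sign in any of the 17 alternatives. All members but Rrad kept their side of the threshold with each library left out in turn. The call of Rhou was lost with library totals (0.91, edgeR adjusted p = 0.056). Rrad was called with upper-quartile factors (−0.57), library totals (−1.27), limma-trend on log2(FPKM + 1) (−1.09) and on log2(FPKM + 0.1) (−1.26), and its value ranged from −0.55 to −0.25 with 1 library left out. The cause was not tested. The pseudocount shrinks the values of low genes: over the 11 settings that kept all libraries Rasd2 ranged from 1.87 to 8.05 and Rem2 from 4.04 to 5.89. The calcium channel list had 7 called genes with library totals and with limma-trend at either pseudocount, against 3. With library totals 1722 genes were called higher and 8492 lower, against 4319 and 4760.

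The labels give both groups the numbers 1 to 3. Same-numbered libraries had correlations of deviations of 0.00776, 0.0381 and 0.0840, so the numbers were not taken to pair them. With the replicate block 8814 genes and the same number of members, 9, were called, and Rem2 was at 5.81. Depth limits Rasd2, Rasd1, Rhou and Gem in control, with 9, 57, 57 and 63 counts over 3 libraries.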

Other observations

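The 3 further lists described here were chosen after the other results were seen and cover regulators and relatives outside the RhoA-related GTPases. Of 16 GTPase-activating proteins of Ras and Rap tested, 5 were lower, 3 higher and 8 not called (median log2 fold change −0.22; scaled by totals, 0 higher and 12 lower, median −1.07; with the length trend removed, 8 higher and 4 lower, median 0.43). Rasal2 and Rasa3 fell by 2.58 ± 0.25 and 2.35 ± 0.13, and Rasa1, the p120 RasGAP, by 1.60 ± 0.15 (edgeR adjusted p = 2.6e-05). Sipa1, which acts on Rap, fell by 1.30 ± 0.15. Of 15 exchange factors of Ras and Rap, 8 were lower, 2 higher and 5 not called (median −0.93, and −0.47 with 6 lower and 3 higher with the length trend removed). Rgl1 and Rapgef1 fell by 1.80 ± 0.16 and 1.54 ± 0.16, Rapgef2 fell by 0.70 ± 0.11, and Ralgds rose by 1.03 ± 0.15 (0.18 with library totals). Of 23 Arf and Arl genes, which steer membrane traffic, 9 were higher, 4 lower and 10 not called (median 0.04; scaled by totals, 1 higher and 15 lower, median −0.82). Arl4a, an Arl protein that recruits exchange factors to the plasma membrane, went from 12.8 ± 1.26 to 30.7 ± 3.81 CPM (SD, n = 3) and rose by 1.27 ± 0.14 on the log2 scale (edgeR adjusted p = 8.1e-05). Arl5b, Arl3 and Arf1 rose by 1.26 ± 0.14, 0.92 ± 0.10 and 0.83 ± 0.09, but had no call when scaled by totals, at 0.41, 0.07 and −0.03.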
